A study of Homo sapiens with 3 samples.

Results

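The 39 human HOX genes are the HOXA, HOXB, HOXC and HOXD genes that carry a paralogue number alone, without their antisense and long noncoding partners. All 39 were found among the 36601 genes of the matrix, 11 in HOXA on chromosome 7, 10 in HOXB on chromosome 17, 9 in HOXC on chromosome 12 and 9 in HOXD on chromosome 2. The 71 HOX peaks are the accessible regions within 5 kb of the interval that the files give for any of these genes, out of 215590 peaks in all. Of them 18 belong to HOXA, 22 to HOXB, 23 to HOXC and 8 to HOXD, and 22 lie within 5 kb of more than 1 HOX gene. Levels and openness are described over 8913 cells.

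The cells were NCI-H226_CL3, a GNE7883-resistant line, and parental NCI-H226, from which it was derived. NCI-H226 is a human mesothelioma cell line without NF2, the Hippo pathway tumour suppressor, and both lines share that loss. GNE7883 inhibits the TEAD transcription factors, which carry the output of the Hippo pathway. NCI-H226_CL3 is 1 clone, selected with GNE7883 doses raised between 0.25 and 3 µM in steps of 0.1 to 0.5 µM, and each line was then challenged with GNE7883 or with DMSO. The dose and time of that challenge are not given in the labels used here. The 4 conditions were marked with hashtag antibodies, mixed and measured together by single-cell multiome sequencing, which reads RNA and accessible chromatin from the same cell. The matrix carries no hashtag count, so no cell can be assigned to a line or to a treatment, and the cells form 1 pooled sample. No condition is compared here, no p-value is given, and all intervals are 95% intervals that cover counting error only.

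HOX genes encode homeodomain transcription factors that give cells their position along the body axis. They sit in 4 clusters in which the order along the chromosome follows the order of expression along the body, from anterior genes with low paralogue numbers to posterior genes with high ones. Adult cells usually keep a pattern set in the embryo, held on by Trithorax proteins and off by Polycomb proteins, and HOX proteins bind DNA together with PBX and MEIS cofactors.

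The promoters of 4 genes are printed to show the sequence under the peaks described below. HOXA2 and HOXA4 were transcribed, with a peak over the start in 4.43% and 9.56% of cells. HOXA13 had few transcripts and a peak over the start in 4.29% of cells. HOXD11 had 0 UMIs and a peak over the start in 1.05% of cells. Each promoter runs 5′ to 3′ along the gene's own strand over the 250 bases before the RefSeq start (GRCh38.p14). Capitals mark the searched motifs on either strand, CCAAT or its reverse ATTGG in all but HOXD11, and ATCAATCA, the reverse of a TGATTNAT HOX-PBX motif, in HOXA2 and HOXD11. The positions are chr7:27102684-27102933 on the minus strand for HOXA2, chr7:27130758-27131007 on the minus strand for HOXA4, chr7:27200092-27200341 on the minus strand for HOXA13 and chr2:176107030-176107279 on the plus strand for HOXD11.
HOXA2: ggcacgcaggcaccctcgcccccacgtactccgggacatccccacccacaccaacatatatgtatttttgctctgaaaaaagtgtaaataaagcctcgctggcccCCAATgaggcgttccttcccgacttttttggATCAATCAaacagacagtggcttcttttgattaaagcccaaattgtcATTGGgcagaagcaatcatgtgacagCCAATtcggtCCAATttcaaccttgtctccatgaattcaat
HOXA4: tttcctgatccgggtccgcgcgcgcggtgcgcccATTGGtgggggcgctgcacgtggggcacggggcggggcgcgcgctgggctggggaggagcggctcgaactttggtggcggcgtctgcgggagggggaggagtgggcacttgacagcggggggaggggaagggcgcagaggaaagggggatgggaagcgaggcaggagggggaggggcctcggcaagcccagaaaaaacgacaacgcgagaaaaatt
HOXA13: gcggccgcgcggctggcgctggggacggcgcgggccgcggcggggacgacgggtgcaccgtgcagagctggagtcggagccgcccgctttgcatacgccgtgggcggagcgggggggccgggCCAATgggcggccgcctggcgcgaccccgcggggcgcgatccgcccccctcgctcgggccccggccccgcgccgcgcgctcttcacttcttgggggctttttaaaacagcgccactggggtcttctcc
HOXD11: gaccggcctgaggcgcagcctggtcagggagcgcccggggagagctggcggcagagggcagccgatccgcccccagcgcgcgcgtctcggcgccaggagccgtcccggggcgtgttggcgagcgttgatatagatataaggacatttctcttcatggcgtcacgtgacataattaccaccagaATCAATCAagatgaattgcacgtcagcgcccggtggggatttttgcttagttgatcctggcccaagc

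Promoter windows were at hand for 20 of the 39 genes, 27 windows in all, and 20 windows had a start within 100 bases of the interval in the files. HOXC4 and HOXC5 share 1 identical window. CCAAT stood in 18 of the 27 HOX windows and in 32.0% of all 35116 windows. GGAATG, the core letters of a TEAD site, stood in 8 HOX windows and in 11.9% of all, and TATAAA in 5 HOX windows and in 10.7% of all. TGATTNAT stood in 2 HOX windows and in 2.48% of all. TGANTCA, the AP-1 motif, was found in none of the 27 HOX windows and in 6.57% of all. Both strands were searched, a match of 1 motif may share bases with a match of another, and the median number of CpG dinucleotides was 19 in the HOX windows and 11 in all windows. These matches describe letters and are not binding sites.

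The kept cells held 16588148 UMIs, tags that count each captured transcript once, and 48410778 peak counts, with medians of 1524 UMIs and 4034 peak counts per cell. The medians and totals set the precision: a gene with 0 UMIs may still stand at up to 0.181 CPM (UMIs per 1000000 UMIs), the level that 3 UMIs would give. All 12 mesothelial markers reached 5 CPM, with CALB2 at 771 CPM, MSLN at 79.0 CPM and WT1 at 68.4 CPM, and their sum was 9886 CPM in cells and 13692 CPM in free RNA. The 8 lung epithelial and squamous markers summed to 1.57 CPM and the 9 immune markers to 2.05 CPM, with NKX2-1, SFTPC, CD3E, MS4A1 and NKG7 at 0 UMIs. Of 8 fibroblast markers 3 reached 5 CPM and of 5 endothelial markers 1 did, against 29.5% of all genes.

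Most HOX transcripts came from HOXA2 to HOXA5 and HOXB2 to HOXB4, and hardly any from HOXD. HOXA10 (8.26 CPM) and HOXC9 (7.54 CPM) stood near HOXA4 (7.66 CPM), and HOXC8 was lower. In all, 2544 UMIs were counted, 153 CPM or 0.285 per cell. A gene is called on at 5 CPM or more. Of the 39 genes 9 were on, against 29.5% of all genes, and 15 had 0 UMIs, against 32.2% of all genes. Of the others, 3 had 1 to 3 UMIs and 12 had more but stayed below 5 CPM. The median was 0.362 CPM over the HOX genes and 0.241 CPM over all genes.

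In HOXA, 5 of 11 genes were on. HOXA2, a selector gene of the second branchial arch, had 150 UMIs or 9.04 CPM (7.65 to 10.6). HOXA3, required for the thymus and parathyroid in the mouse, had 629 UMIs or 37.9 CPM (35.0 to 41.0). HOXA5, required for lung and airway development in the mouse, had 479 UMIs or 28.9 CPM (26.3 to 31.6). HOXA3 and HOXA5 together gave 43.6% of all HOX UMIs. HOXA4 had 7.66 CPM (6.38 to 9.11) and HOXA10, a factor of the female reproductive tract, had 8.26 CPM (6.93 to 9.76). HOXA10 stood alone among the posterior genes of the cluster. HOXA6 and HOXA7, between HOXA5 and HOXA10, had 6 and 17 UMIs. At the far end HOXA9 had 2 UMIs, HOXA11 had none and HOXA13, a gene of digits and genital tract, had 13. The annotated span of HOXA3 runs across HOXA4 and reaches past HOXA5, and since the sources used here do not state whether intronic reads were counted, UMIs credited to HOXA3 may include RNA of overlapping transcripts. HOXA10 and HOXA9 also share read-through transcripts.

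In HOXB, 3 neighbouring genes were on. HOXB2 had 157 UMIs or 9.46 CPM (8.04 to 11.1) and HOXB3 had 219 UMIs or 13.2 CPM (11.5 to 15.1), both genes of the hindbrain. HOXB4, known for expanding blood stem cells, had 278 UMIs or 16.8 CPM (14.8 to 18.8). The run stopped on both sides, with 0 UMIs for HOXB1, HOXB5 and HOXB6. A low second group followed, HOXB7 with 25 UMIs (1.51 CPM), HOXB8 with 7 and HOXB9 with 53 (3.20 CPM, 2.39 to 4.18). HOXB13, a prostate factor at a distance from the rest of its cluster, had 2 UMIs. HOXB3 spans HOXB4 and the same caution on overlapping transcripts holds for the pair.

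In HOXC, HOXC9 was on, with 125 UMIs or 7.54 CPM (6.27 to 8.98). HOXC8 stood just below the level, with 64 UMIs or 3.86 CPM (2.97 to 4.93). In the mouse both pattern the thoracic skeleton and the motor neurons of the trunk and forelimb levels. HOXC4, HOXC5 and HOXC6, which share an upstream promoter and first exon, had 10, 4 and 12 UMIs and cannot be told apart safely. HOXC10, HOXC11 and HOXC12 had 0 UMIs. HOXC13, a gene of hair and nails, had 12 UMIs (0.723 CPM).

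In HOXD, 8 of 9 genes had 0 UMIs and HOXD3 had 3, which gives 0.181 CPM for the whole cluster (0.0373 to 0.528). None of HOXD1, HOXD4 and HOXD8 to HOXD13 was detected, each with a limit of 0.181 CPM. The genes on either side of the cluster were transcribed, MTX2, a mitochondrial import protein, at 63.5 CPM and LNPK, an endoplasmic reticulum protein, at 30.0 CPM. EVX2, the homeobox gene at the posterior end of HOXD, had 0 UMIs, and so did EVX1 at the posterior end of HOXA.

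**Figure D1:**
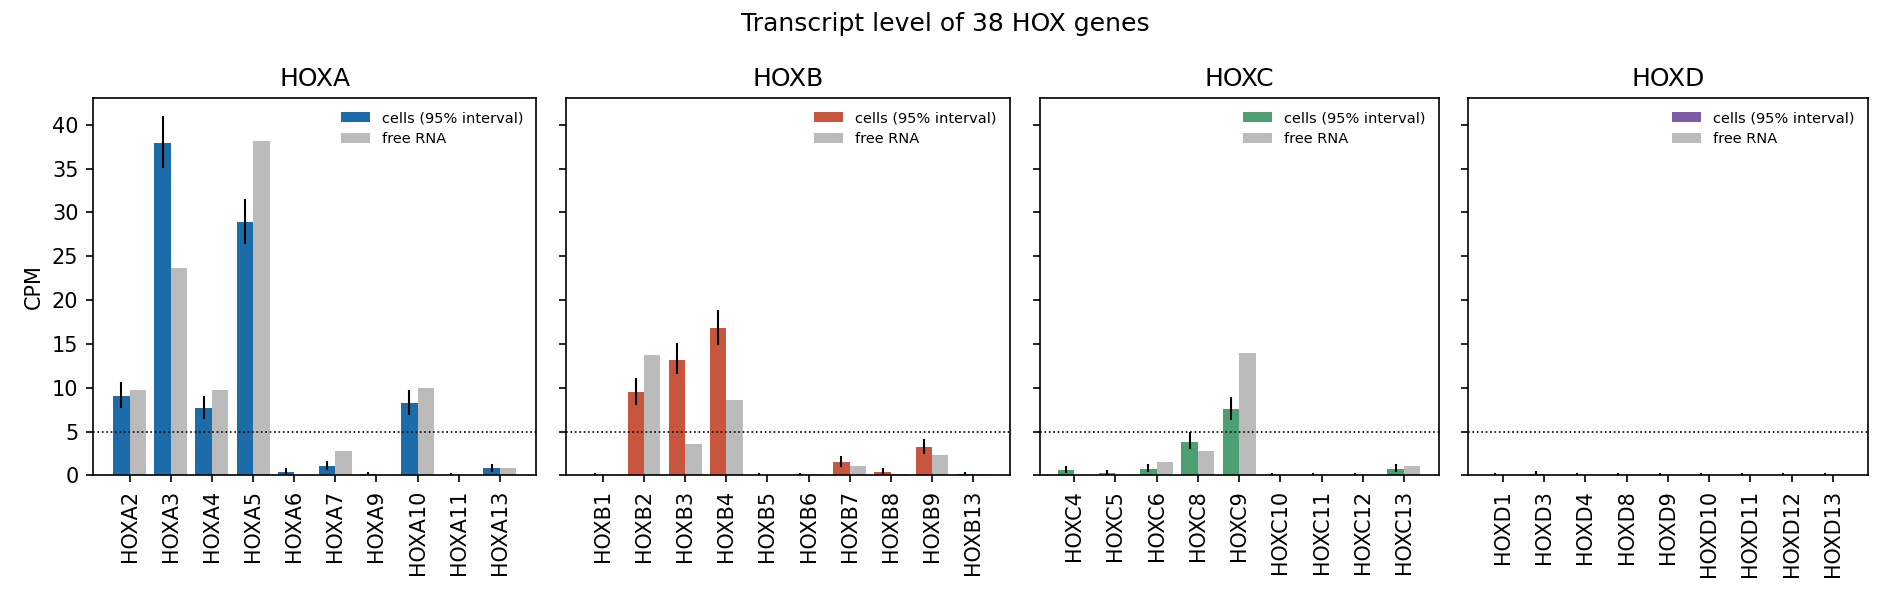
Transcript level of 38 of the 39 HOX genes, in CPM, by HOX cluster and in order of paralogue number. Coloured bars are the 8913 cells with Poisson 95% intervals, grey bars are free RNA and the dotted line is the 5 CPM level. HOXA3 and HOXA5 give the tallest bars in cells, at 37.9 and 28.9 CPM, and the HOXD panel holds no bar above 0.181 CPM.

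By position, 4 of the 8 anterior genes (paralogues 1 to 3) were on and gave 46.0% of the HOX UMIs. Of the 15 central genes (paralogues 4 to 8) 3 were on, with 40.4% of the UMIs, and of the 16 posterior genes (paralogues 9 to 13) 2 were on, with 13.5%. By cluster, the UMIs summed to 94.8 CPM in HOXA (90.2 to 99.6), 44.7 CPM in HOXB (41.5 to 48.0) and 13.7 CPM in HOXC (12.0 to 15.6). These sums add genes of unequal length and number. In the 2217 barcodes over the mitochondrial limit the sums were 76.7, 38.7 and 14.0 CPM for HOXA, HOXB and HOXC, and 0 for HOXD.

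Levels between genes are compared per kb of the RefSeq gene span, introns included. On that scale HOXA5 stood highest, at 11.0 CPM per kb (10.0 to 12.0), and HOXB4 next, at 5.89 CPM per kb (5.22 to 6.63), with intervals apart from each other and from all other HOX genes. HOXA2 (3.88 CPM per kb), HOXB2 (3.86 CPM per kb) and HOXA4 (3.43 CPM per kb) had overlapping intervals, and HOXC9 followed at 2.37 CPM per kb, with an interval below theirs. HOXC8 at 1.02, HOXA10 at 0.892 and HOXA3 at 0.832 CPM per kb overlapped again, so the gene with the most HOX UMIs is a middling one once its span of 45574 bases is counted. HOXB3 stood at 0.319 CPM per kb over a span of 41372 bases. Libraries that read one end of a transcript do not gain UMIs in proportion to length, which limits this scale.

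Free RNA was read from 22936 barcodes with 100 to 300 UMIs and at most 100 peak counts, 4739449 UMIs in all, with a median of 206 UMIs. The HOXA sum was 94.8 CPM in cells and 96.2 CPM in free RNA, the HOXB sum 44.7 CPM in cells and 30.0 CPM in free RNA, and the HOXC sum 13.7 CPM in cells and 19.2 CPM in free RNA. In cells 3 transcripts stood above free RNA, HOXB3 (13.2 against 3.59 CPM, 3.68-fold, 2.25 to 6.43), HOXB4 (16.8 against 8.65 CPM, 1.94-fold, 1.39 to 2.76) and HOXA3 (37.9 against 23.6 CPM, 1.60-fold, 1.31 to 1.98). HOXA5 (28.9 against 38.2 CPM, 0.756-fold, 0.636 to 0.902), HOXB2 (0.690-fold) and HOXC9 (7.54 against 13.9 CPM, 0.541-fold, 0.399 to 0.741) stood below it. The intervals of HOXA2, HOXA4 and HOXA10 included 1. All cells of the pool are of NCI-H226 origin, so no cell type that should lack these genes was at hand as a zero, and for the 6 genes not above free RNA a level in a single cell cannot be told apart from free RNA.

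Accessible chromatin at the HOX clusters was read as the share of cells with a count in a peak. A peak is called open at 5% of cells or more. Of the 71 HOX peaks 7 were open, against 5.44% of all peaks, and 33 were at 2% or more, against 17.0% of all peaks. The median share was 1.67% of cells over HOX peaks and 0.539% over all peaks, with median widths of 865 and 880 bases. Peaks are numbered along the chromosome within each cluster, and coordinates are those of the files, whose build the submitters' processing notes give as GRCh38.p10. In cells with at least 2000 UMIs and 2000 peak counts, where each cell is read more deeply, 16 HOX peaks were open.

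Of the 7 open peaks 4 lay in the anterior and central part of HOXA. HOXA-p7 (chr7:27130481-27131302), over the HOXA4 start and inside HOXA3, had a count in 852 cells, 9.56% (8.96 to 10.2). HOXA-p10 (chr7:27143295-27144135), over the HOXA5 start, had a count in 8.85% of cells (8.27 to 9.46) and HOXA-p9 (chr7:27135866-27136787), inside HOXA3, in 8.18% (7.62 to 8.77). The HOXA2 start lay under HOXA-p4 (4.43% of cells). HOXA10 has starts over an interval of 6007 bases. Its upstream end lay under HOXA-p15 (2.04%), while HOXA-p14, 301 bases from its downstream end, had 4.48%. HOXA-p18 over the HOXA13 start had a count in 4.29% of cells (3.87 to 4.73), beside 13 UMIs of HOXA13.

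In HOXB the open peak was HOXB-p20 (chr17:48626206-48626955) over the HOXB9 start, with a count in 6.31% of cells (5.81 to 6.83), although HOXB9 had 3.20 CPM. The peaks at the transcribed genes were lower. HOXB-p15, inside HOXB3, had 4.41% of cells, HOXB-p8, also inside HOXB3, 3.24%, HOXB-p13 over the HOXB4 start 3.13% and HOXB-p6 over the HOXB2 start 3.01%. Of the other peaks inside HOXB3, HOXB-p12 had 2.64% of cells, HOXB-p14 1.60%, and HOXB-p9, HOXB-p10 and HOXB-p11 between 0.269% and 0.482%. HOXB7 had no peak within 5 kb, and 92.3 kb between the HOX peaks of HOXB9 and HOXB13 held no other HOX peak. Peaks more than 5 kb from a HOX gene were not counted in that stretch, and the HOXB span held 28 peaks of any kind.

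In HOXC both open peaks lay at genes with few transcripts. HOXC-p1 (chr12:53938171-53939078), over the HOXC13 start, had a count in 8.52% of cells (7.94 to 9.11) beside 0.723 CPM of HOXC13. HOXC-p15 (chr12:54017618-54018534), inside HOXC4 and HOXC6, had a count in 8.28% of cells (7.72 to 8.87) beside 0.603 CPM of HOXC4 and 0.723 CPM of HOXC6. At HOXC9, the gene that was on, HOXC-p8 had 3.40% and HOXC-p9 3.09% of cells. HOXC-p6, over the start of HOXC10, had 4.35% of cells and HOXC10 had 0 UMIs.

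In HOXD the 8 peaks had counts in 0.0898% to 1.78% of cells, and none was open. The highest were HOXD-p2 between HOXD12 and HOXD13 (1.78% of cells), HOXD-p4 over the HOXD11 start (1.05%), with the HOXD11 promoter sequence given above, and HOXD-p1 beyond HOXD13 (0.909%). All 3 lay at the posterior end, and a stretch of 37.9 kb with HOXD8, HOXD4 and HOXD3 held no HOX peak. Peaks more than 5 kb from a HOX gene were not counted in that stretch. HOXD1 and HOXD4 had no peak within 5 kb.

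**Figure D2:**
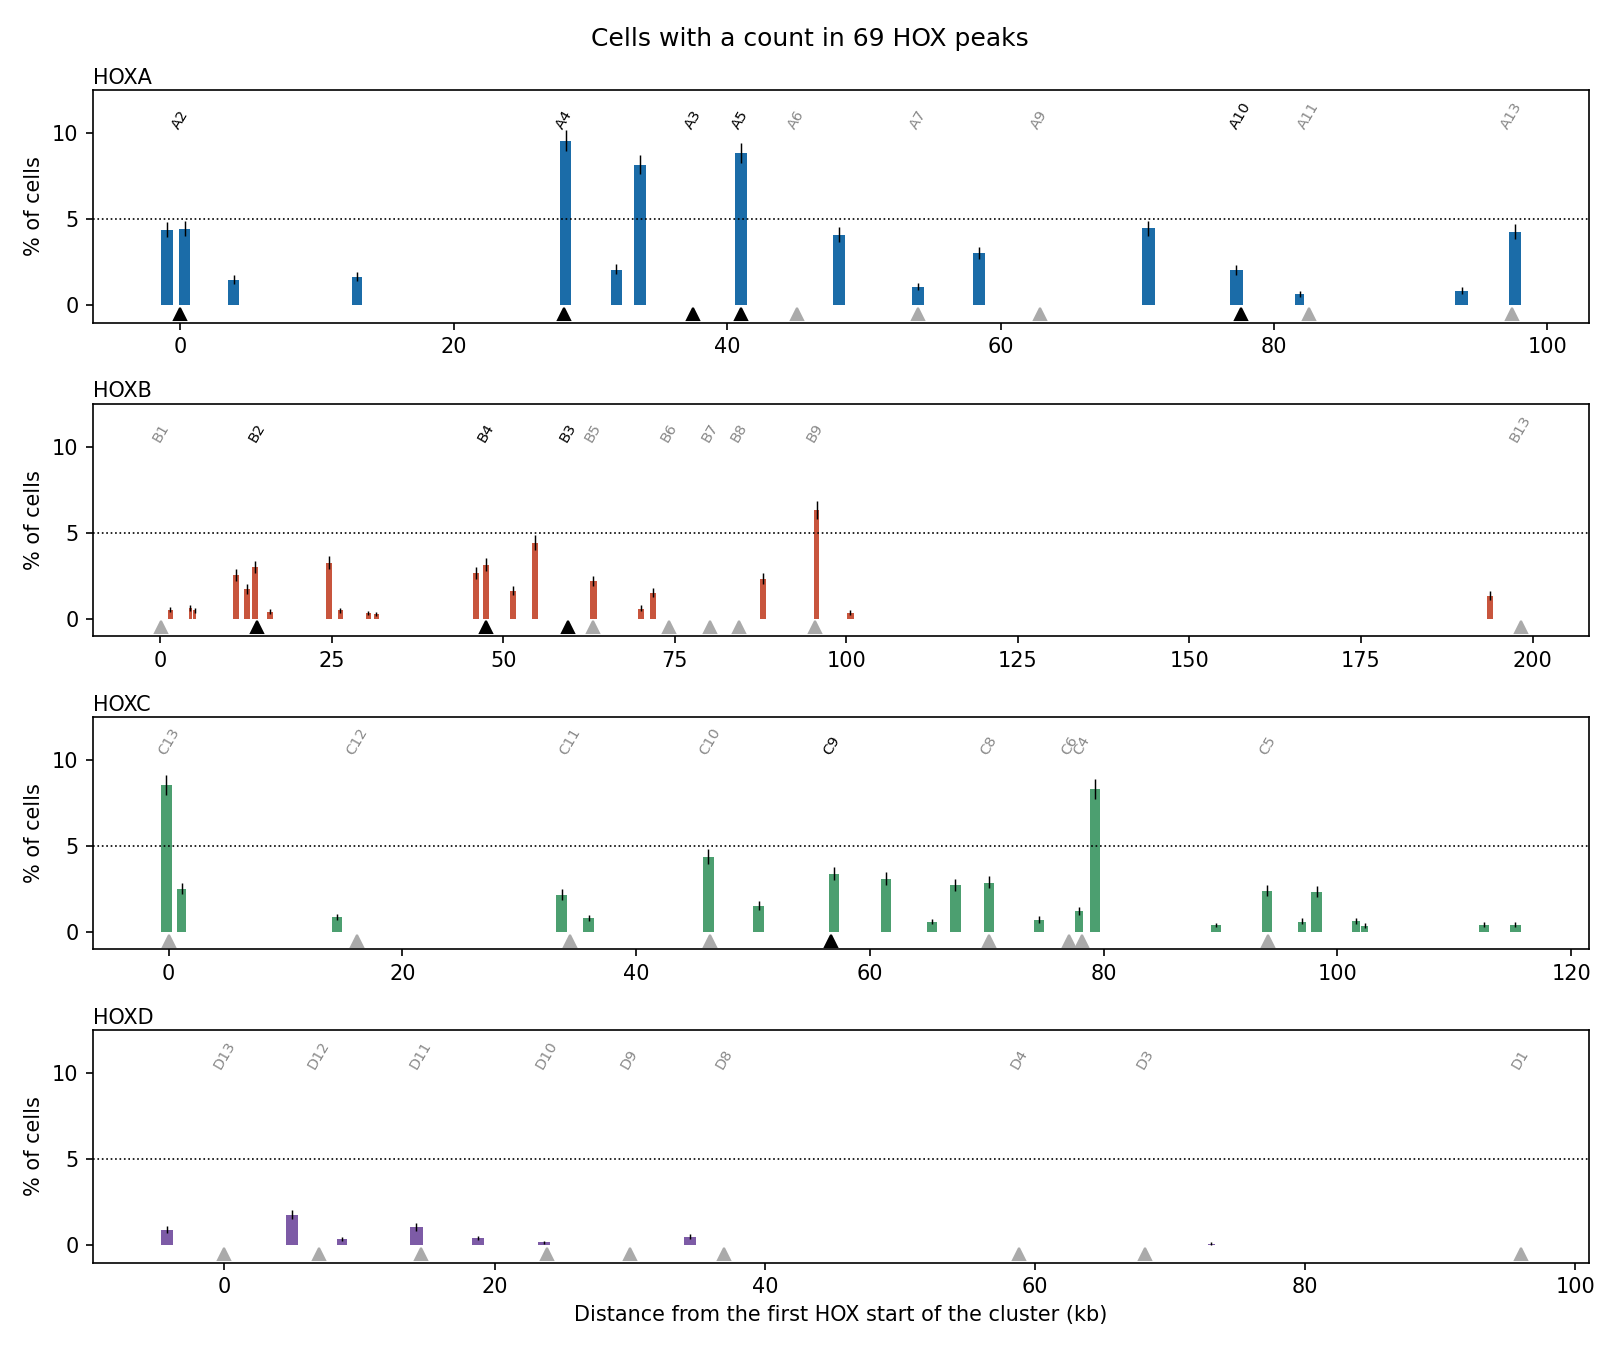
Share of cells with a count in 69 of the 71 HOX peaks, in percent, against the distance in kb from the plotted HOX gene interval with the lowest coordinate in its cluster. Bars are peaks at their own width with Clopper-Pearson 95% intervals, triangles are gene starts (black for genes at 5 CPM or more) and the dotted line is 5% of cells. The 3 tall HOXA bars lie from HOXA4 to HOXA5, and all 8 HOXD bars stay below 2% of cells.

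Over the span between the outermost HOX starts, HOXD had the fewest peaks and the fewest counts in them. HOXA held 22.1 peaks per 100 kb and HOXC 22.6, HOXB 14.1 and HOXD 10.4, against 6.98 over the chromosomes as a whole. Counts, taken as 1 event for every 2 counts, came to 82.5 events per kb of span in HOXA, 39.8 in HOXC, 20.5 in HOXB and 7.24 in HOXD. HOXB is the longest, at 198 kb, and includes the stretch beside HOXB13. At the edge of the 5 kb window, the last peaks inside lay 4685, 4681 and 4042 bases from HOXB9, HOXB1 and HOXB13 and had 0.359%, 0.482% and 1.35% of cells. The first peaks outside lay 5018, 5186 and 5191 bases from HOXC11, HOXB2 and HOXA2 and had 0.539%, 1.26% and 3.96% of cells.

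Transcripts and openness were aligned in part. Of the 9 genes that were on, 3 had an open peak within 5 kb (HOXA3, HOXA4 and HOXA5), and 6 genes that were not on had one too, among them HOXA6, HOXB9, HOXC4, HOXC6 and HOXC13. The median of the most open peak within 5 kb was 4.43% of cells for the 9 genes that were on and 2.18% for the 27 others with a peak. Over the 39 genes, with genes without a peak set to 0, Spearman's rho between CPM and the most open peak was 0.686. Over the 22 genes with a peak on their interval, it was 0.384 for that peak. These are descriptions across genes that share libraries and, for neighbours such as HOXA3 and HOXA4, the same peak.

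**Figure D3:**
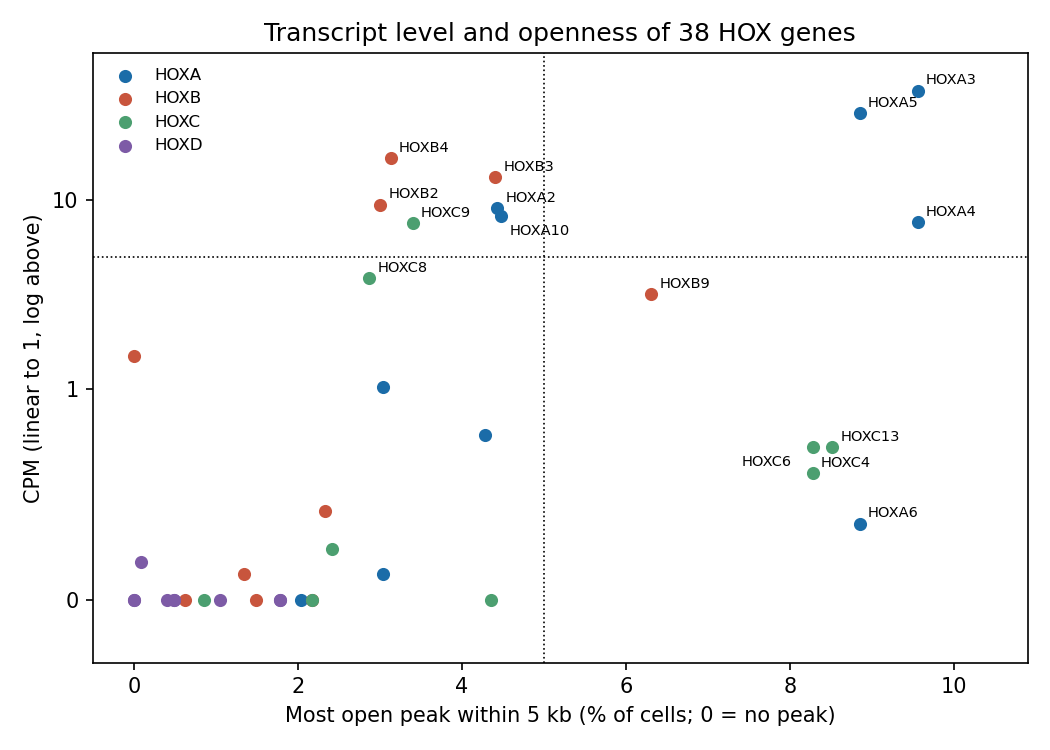
Transcript level in CPM (linear to 1, logarithmic above) against the most open peak within 5 kb, in percent of cells, for 38 of the 39 HOX genes. Dotted lines mark 5 CPM and 5% of cells, and points at 0% have no peak within 5 kb. HOXA3, HOXA4 and HOXA5 lie in the upper right, and HOXA6, HOXB9, HOXC4, HOXC6 and HOXC13 lie in the lower right.

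Among the antisense and long noncoding genes of the clusters, 2 of 18 reached 5 CPM, both in HOXA, against 29.5% of all genes. HOTAIRM1 stood at 32.4 CPM (29.7 to 35.3) in cells and 32.9 CPM in free RNA, and HOXA-AS2, which overlaps HOXA3, at 23.3 CPM (21.1 to 25.8) in cells and 24.9 CPM in free RNA. HOXB-AS1 had 2.41 CPM. HOTAIR, the noncoding RNA of the HOXC cluster, had 3 UMIs, HOTTIP at the HOXA13 end had 1, and HOXA11-AS, HOXB-AS2 and HAGLR had 0.

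Most partners and regulators of HOX proteins were on, against 29.5% of all genes, while the retinoid and caudal genes stood nearer to that share. Of 9 cofactors 7 were on, among them MEIS2 at 471 CPM and PBX3 at 129 CPM, which form complexes with HOX proteins on DNA. PBX4 (3.62 CPM) and PKNOX2 (0.422 CPM) were not. Of 27 Polycomb genes 25 were on, including the methyltransferase EZH2 at 49.1 CPM and its partner SUZ12 at 83.6 CPM, and CBX2 (1.63 CPM) and CBX8 (2.65 CPM) were not. All 14 Trithorax genes were on, with KMT2A, which keeps HOX genes active, at 145 CPM. Of 11 retinoid and caudal genes 4 were on, the receptors RARA, RARG, RXRA and RXRB at 10.5 to 18.3 CPM, while the caudal factors CDX2 and CDX4 had 0 UMIs and CDX1 had 1. CTCF, which binds insulators between HOX genes, stood at 51.1 CPM, and all 6 insulator and cohesin genes were on.

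Chromatin divided the cells into 7 clusters of at least 100 cells, drawn from peaks without the 71 HOX peaks. They held 5308, 1189, 627, 576, 525, 352 and 288 cells, in this order, and 48 cells in smaller groups were not compared. Cells of cluster 1 were read least deeply (median 1342 UMIs and 3299 peak counts), against 1728.5 to 2335.5 UMIs and 5883 to 7790 peak counts in clusters 2 to 7. The clusters are known by number and leading genes, such as CLDN11 and OSCAR in cluster 4 and ITLN1 and CHI3L1 in cluster 7. None was read as a line or a treatment. A gene or peak with at least 100 UMIs or events was compared, cells of 1 cluster over all other cells, and called at 1.5-fold with an interval that leaves out 1.

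The HOX genes called between chromatin clusters were HOXA genes, while calls of HOX peaks also fell in HOXB and HOXC. Of 9 HOX genes compared, 4 were called in at least 1 cluster (44.4%), against 41.8% of all genes compared, so HOX genes were called about as often as genes at large. The 63 gene ratios gave 8 calls, without adjustment for their number. HOXA2, HOXA3, HOXA4 and HOXA5 were the genes called. HOXB9, with 53 UMIs, was under the minimum of 100, and with a minimum of 20 UMIs it was called too, at 6.28 CPM in cluster 2 and 2.59 CPM in other cells (2.42, 1.28 to 4.43).

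In cluster 4 all 3 calls were lower. HOXA3 stood at 20.7 CPM in cluster 4 and 39.6 CPM in other cells (ratio 0.522, 0.352 to 0.749), and HOXA5 at 16.0 CPM in cluster 4 and 30.2 CPM in other cells (0.532, 0.337 to 0.801). HOXA4 had 4 UMIs in cluster 4, 2.67 CPM, and 8.15 CPM in other cells (0.328, 0.0879 to 0.861). Of all genes compared, 6.94% were called lower in cluster 4. HOXA2 was not called there, with a ratio of 1.04 (0.552 to 1.80), nor was HOXA10, with 0.880 (0.428 to 1.63). HOXB2, HOXB3 and HOXB4 had ratios of 1.22, 1.13 and 1.04 and were not called.

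In cluster 7 all 3 calls were higher. HOXA2 had 12 UMIs in cluster 7, 19.4 CPM, and 8.64 CPM in other cells (2.25, 1.13 to 4.06). HOXA3 stood at 56.7 CPM in cluster 7 and 37.2 CPM in other cells (1.52, 1.05 to 2.14), and HOXA5 at 45.3 CPM in cluster 7 and 28.2 CPM in other cells (1.61, 1.05 to 2.35). Of all genes compared, 4.49% were called higher in cluster 7. HOXA4 was not called there, at 6.48 CPM in cluster 7 and 7.70 CPM in other cells (0.841, 0.226 to 2.21). It was called higher in cluster 3 (12.7 CPM, against 7.19 CPM in other cells, 1.76, 1.01 to 2.92), where 5.23% of genes were, and in cluster 5 (13.5 CPM, against 7.21 CPM in other cells, 1.88, 1.04 to 3.19), where 4.37% were. Under other choices of cells, clusters or totals, the call of HOXA5 in cluster 4 was kept in all 7 (ratios 0.480 to 0.658), and each of the other 7 gene calls was lost under at least 1, HOXA2 in cluster 7 under 1 of 5 (1.61 to 2.50), HOXA3 in cluster 7 under 3 of 5 (1.33 to 1.56) and HOXA4 in cluster 5 under 4 of 7 (1.22 to 1.97).

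**Figure D4:**
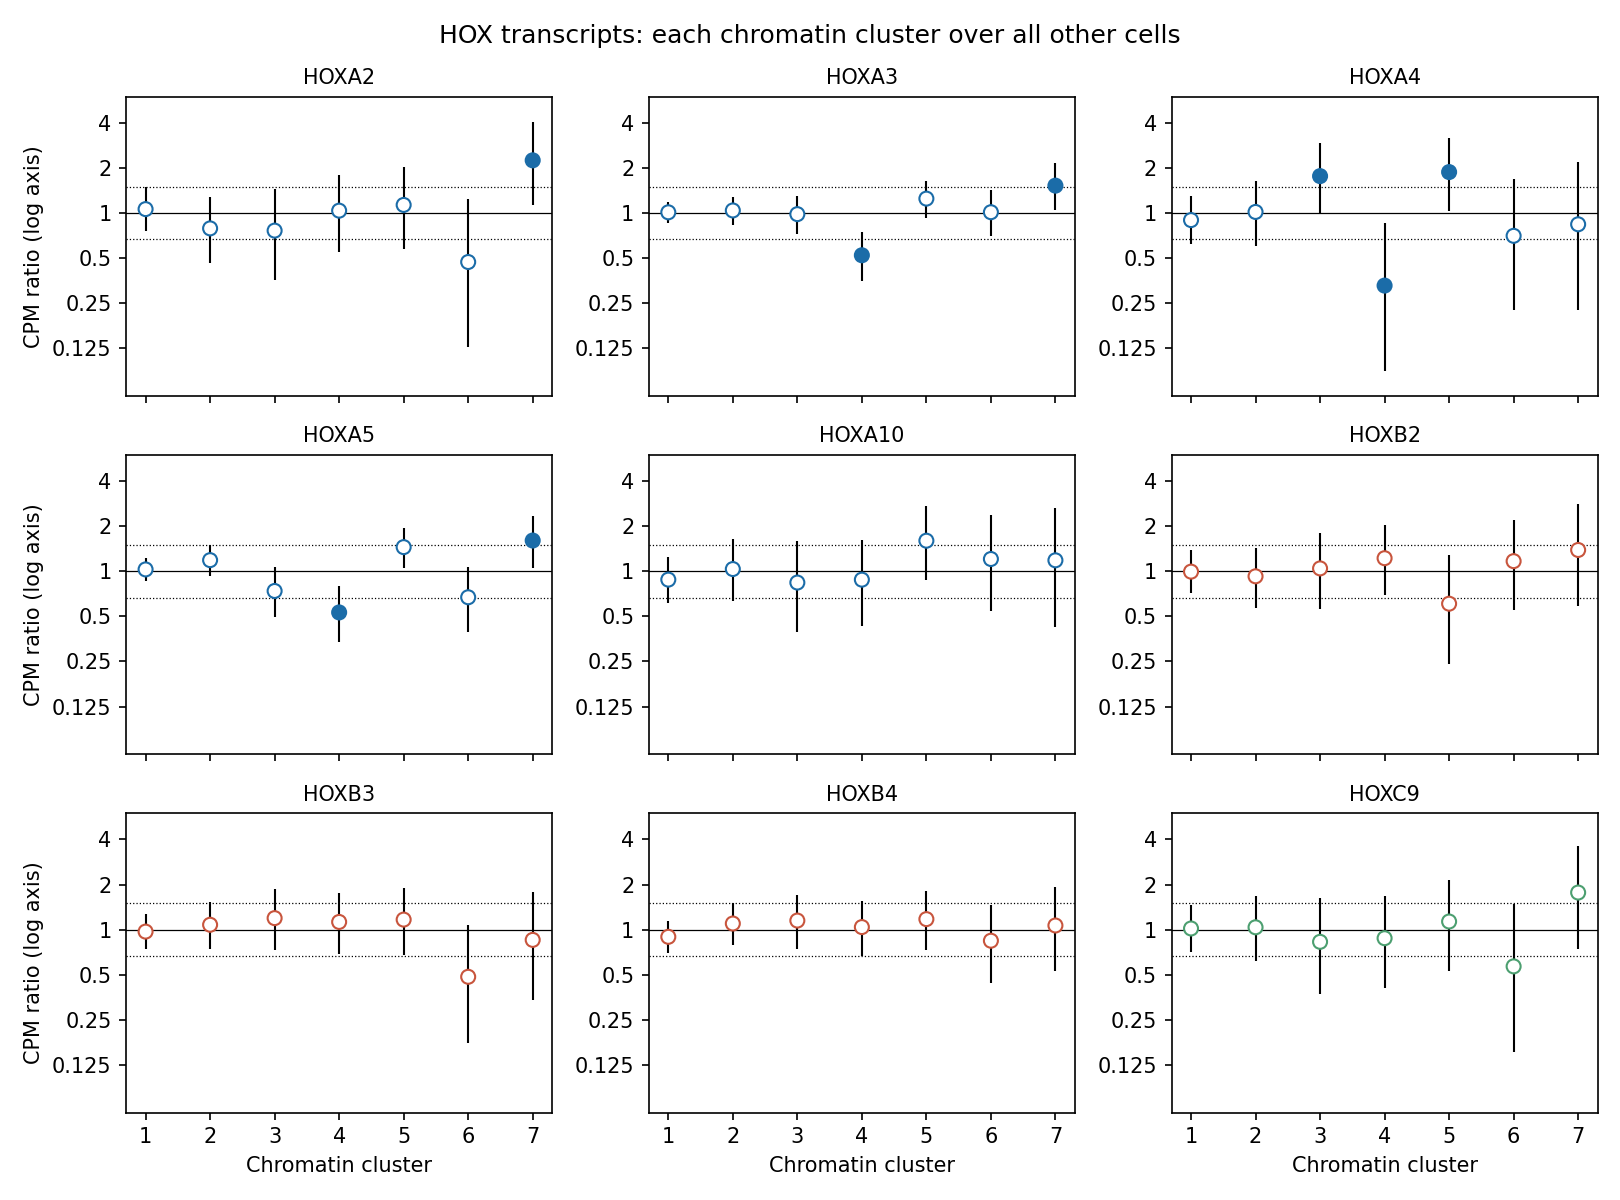
Ratio of CPM, cells of 1 chromatin cluster over all other cells, on a logarithmic axis, for the 9 HOX genes with at least 100 UMIs. Bars are 95% intervals for counting error, filled points are called and dotted lines mark 1.5-fold in either direction. The filled points lie in the panels of HOXA2, HOXA3, HOXA4 and HOXA5, with those of cluster 4 below 1 and those of clusters 3, 5 and 7 above it.

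In clusters 4 and 7 the HOXA peaks differed in the same direction as the HOXA transcripts. Summed over the cluster, HOXA UMIs stood at 60.1 CPM in cluster 4 and 98.3 CPM in other cells (0.612, 0.489 to 0.757), and HOXA peak events at 211 per 1000000 peak events in cluster 4 and 263 on the same scale in other cells (0.799, 0.722 to 0.882). In cluster 7 the HOXA UMIs stood at 141 CPM, against 93.0 CPM in other cells (1.51, 1.21 to 1.88), and the peak events at 338 on that scale, against 255 in other cells (1.33, 1.20 to 1.47). HOXA UMIs were also above other cells in cluster 5 (1.35, 1.13 to 1.60), with peak events at 1.06 (0.968 to 1.15). HOXB sums had ratios of 0.878 to 1.12 for UMIs and 0.912 to 1.10 for peak events, and every interval included 1. The HOXA UMI sums kept their direction, with intervals that left out 1, under the other choices of cells, clusters or totals that held a matching cluster, 7 for cluster 4 (0.582 to 0.779), 7 for cluster 5 (1.35 to 1.58) and 5 for cluster 7 (1.41 to 1.58). In cells with at least 2000 UMIs and peak counts, clusters 5 and 7 matched the same cluster and so share 1 value, 1.58 (1.30 to 1.91). Clusters 1 and 4 also shared a match there, and the value given for cluster 4 was 0.726 (0.617 to 0.852). HOXC peak events were higher in cluster 5 (1.19, 1.08 to 1.32) and lower in cluster 1 (0.940, 0.886 to 0.998), and HOXD peak events were higher in cluster 3 (1.43, 1.08 to 1.86).

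**Figure D5:**
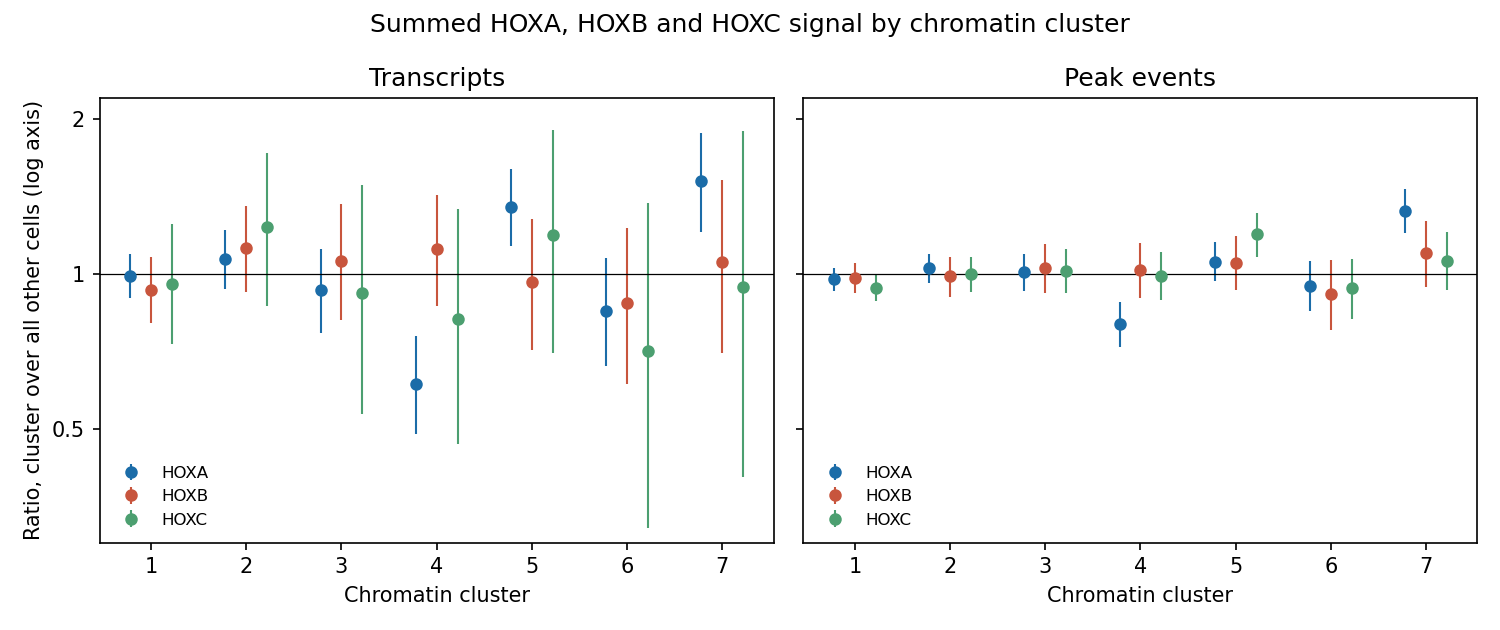
Ratio of summed transcripts (left) and peak events (right), cells of 1 chromatin cluster over all other cells, on a logarithmic axis, for HOXA, HOXB and HOXC. Bars are 95% intervals for counting error. The HOXA points of cluster 4 lie below 1 in both panels (0.612 and 0.799) and those of cluster 7 above 1 (1.51 and 1.33).

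Other values moved in the same clusters, and their part in the HOXA differences was not tested. Genes of chromosome 7 had a median log2 ratio of -0.18 in cluster 4, against -0.04 for all genes, and peaks of chromosome 7 of -0.19, against -0.02 for all peaks. SKAP2, the gene beside the HOXA cluster, stood at 186 CPM in cluster 4 and 307 CPM in other cells (0.604, 0.533 to 0.682), and HOTAIRM1 at 20.0 CPM in cluster 4 and 33.7 CPM in other cells (0.595, 0.397 to 0.860). On the other side of the HOXA cluster, HIBADH had a ratio of 0.799 (0.661 to 0.957) in cluster 4 and TAX1BP1 of 1.22 (1.14 to 1.31), neither of them called, and HOXA-AS2 had 0.847 (0.563 to 1.23). In cluster 5, where HOXA UMIs were higher, the chromosome 7 medians were -0.25 for genes, against -0.12 for all genes, and -0.22 for peaks, against -0.03 for all peaks, and SKAP2 had a ratio of 0.987 (0.882 to 1.10). In cluster 7 the chromosome 7 medians were -0.01 for genes, against -0.09 for all genes, and 0.03 for peaks, against -0.03 for all peaks. There SKAP2 had a ratio of 1.06 (0.916 to 1.23) and HOTAIRM1 of 1.85 (1.28 to 2.60). The 8 fibroblast markers summed to 226.3 CPM in cluster 4 and 150 CPM in other cells, with PDGFRB and THY1 called higher and COL1A2 at 0 UMIs. The endothelial markers summed to 32.4 CPM in cluster 7 and 19.2 CPM in other cells, with KDR called higher. In cluster 5 they summed to 36.4 CPM, against 18.4 CPM in other cells, with KDR called higher there too. The 12 mesothelial markers summed to 12623 CPM in cluster 4 and 9614 CPM in other cells, a sum weighted to its most abundant members. Their median log2 ratio was 0.20, and ITLN1 alone was called there, lower.

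Single peaks gave 15 calls for 11 of the 41 HOX peaks compared (26.8%), against 49.1% of all peaks compared that were called in at least 1 cluster. Of the 11 peaks 5 were in HOXA, 2 in HOXB and 4 in HOXC. HOXA-p8 inside HOXA3 had 56 events in cluster 2, 13.1 per 1000000 events, and 6.10 on that scale in other cells (2.15, 1.54 to 2.97), and 8.19% of all peaks were called higher there. The same peak had 2 events in cluster 4, 0.996 on the same scale, and 7.91 in other cells (0.126, 0.0151 to 0.462), and 5.04% of all peaks were called lower there. HOXA-p11, 2679 bases from HOXA6, was lower in cluster 2 (0.598, 0.423 to 0.826), as were 9.13% of all peaks. HOXA-p3, 524 bases from the HOXA2 start, was higher in cluster 7 (1.86, 1.27 to 2.63), as were 4.27% of all peaks, and lower in clusters 4 (0.620, 0.374 to 0.972) and 6 (0.327, 0.131 to 0.680), and HOXA-p4 over that start was higher in clusters 7 (1.71, 1.15 to 2.45) and 5 (1.53, 1.10 to 2.08), where 5.43% of all peaks were called higher. HOXA2 was called higher in cluster 7, where both of these peaks were called higher. It was not called in cluster 5 (1.13, 0.571 to 2.04), where HOXA-p4 was called. Nor was it called in clusters 4 (1.04, 0.552 to 1.80) and 6 (0.471, 0.127 to 1.23), where HOXA-p3 was called. HOXA-p15 over the upstream HOXA10 start was lower in cluster 4 (0.483, 0.199 to 0.994). Under other choices of cells, clusters or totals this call was lost in 4 of 6. HOXA-p4 in cluster 5 also lost its call in 4 of 6, and HOXA-p3 in cluster 4 in 3 of 6. HOXA-p3 in cluster 6, HOXA-p4 in cluster 7 and HOXA-p8 in cluster 4 lost theirs in 1. The calls of HOXA-p8 and HOXA-p11 in cluster 2 and of HOXA-p3 in cluster 7 were kept in all.

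Peaks of HOXB and HOXC were called in clusters 5, 6 and 7. Of the genes beside them HOXB3 alone had enough UMIs to be compared, and it was not called. HOXB-p15 inside HOXB3 was lower in cluster 6 (0.564, 0.289 to 0.996), as were 4.21% of all peaks, and HOXB-p18 near HOXB6 was higher in cluster 7 (2.12, 1.11 to 3.73). HOXC-p2 near HOXC13 (1.56, 1.01 to 2.34) and HOXC-p4 near HOXC11 (1.82, 1.17 to 2.73) were higher in cluster 5. HOXC-p11 near HOXC8 (2.11, 1.34 to 3.19) and HOXC-p17 over the HOXC5 start (1.79, 1.04 to 2.91) were higher in cluster 7. Under other choices of cells, clusters or totals HOXB-p15 lost its call in 3 of 6 and HOXB-p18 in 3 of 4. HOXC-p2 lost its call in 4 of 6 and HOXC-p4 in 2 of 6. HOXC-p11 and HOXC-p17 lost theirs in 1 of 4 each. The 1 HOXD peak with enough events, HOXD-p2, was not called in any cluster. None of the 7 open peaks was called in any cluster either, against 49.1% of all peaks compared. The share called among peaks as open as these was not counted. Below 1.5-fold, HOXA-p9 in cluster 2 (1.23, 1.03 to 1.47) and HOXA-p7 in cluster 3 (1.24, 1.01 to 1.51) had intervals that left out 1.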

How the data were processed

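The deposited values are raw counts, UMIs for genes and transposition counts for peaks, in 1 sparse matrix that per the file headers came from Cell Ranger ARC 2.0.0. The submitters' processing notes also list Cell Ranger 2.0.0 and ArchR 1.0.3, next to MACS2 and the build GRCh38.p10, without roles. The peak calling, and whether intronic reads were counted, are not given in the sources used here.

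Cells are barcodes that reach 1000 UMIs and 1000 peak counts and have no more than 20% mitochondrial UMIs: 11130 of 651860 barcodes passed both minimums, 2217 of them exceeded the mitochondrial limit and 8913 remained. No doublet caller was run and doublets remain. The counts carry no normalisation by the authors. Here UMIs were summed over cells and divided by the total UMIs (CPM), with exact Poisson 95% intervals. Shares of cells have Clopper-Pearson intervals and ratios of sums have exact conditional binomial intervals, with every 2 peak counts taken as 1 event because 87.9% of peak entries were even. A limit for 0 UMIs uses 3 counts. The gene interval in the files is the span of annotated transcription starts, 1 base for 23 of the 39 HOX genes.

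Chromatin clusters came from peaks in at least 20 cells, without the HOX peaks, weighted by term and inverse document frequency, reduced to 30 components without those correlated over 0.75 with depth, and divided by the Leiden method (15 neighbours, Jaccard weights, resolution 0.5, seed 0). Other weightings were looked at and gave other partitions. The ratio, its interval and the call rule were tested on simulated gene counts with counting error only. That test does not cover spread between cells, free RNA, doublets or peak events. Values are named for all HOX genes at or above 5 CPM, for the 3 most open peaks of each HOX cluster and those over a gene that was on, and for calls. HOX members, gene lists and cell type markers were chosen with earlier results of these data known. Values named outside that rule were chosen after they were seen. Values of some single genes and peaks are not reported here, in the text or the plots, though sums and counts include them. Replicates do not exist: the 3 libraries, for expression, accessibility and hashtags, come from 1 pool. Python 3.11.15, scipy 1.17.1, scikit-learn 1.9.0 and leidenalg 0.10.2 were used.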

Additional observations from a re-analysis of the deposited data

How the results depend on the processing

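No paired analysis was possible because the cells form 1 pooled sample without replicates. The count of 9 genes on became 4 at 10 CPM and 2 at 20 CPM. The count of 7 open peaks became 33 at 2% of cells, 0 at 10% and 16 in cells with at least 2000 UMIs and peak counts, which are read more deeply by construction. Without mitochondrial UMIs in the total, the sums were 110 CPM for HOXA, 52.0 CPM for HOXB and 15.9 CPM for HOXC, by construction. In the 1592 cells with at most 10% mitochondrial UMIs the HOXB sum was 40.5 CPM and the HOXD sum 0. The 4 HOX genes called became 2 with clusters drawn from expression, 2 at 2-fold, 2 (of 4 compared) in cells with at least 2000 counts, 0 (of 1 compared) with at most 10% mitochondrial UMIs, and 2 (of 4 compared) among clusters 2 to 7, a comparison chosen after seeing the data. The 11 HOX peaks called became 7 at resolution 0.3, 5 at 2-fold, 4 (of 22 compared) in cells with at least 2000 counts, 1 (of 3 compared) with at most 10% mitochondrial UMIs and 18 (of 69 compared) with at least 20 events. The cause was not tested where cells or clusters changed. The share of all genes or peaks called was not counted under these other settings, so the counts of calls have no background beside them.

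Under settings that change cells, clusters or totals, ratios of single genes, peaks and HOXA sums kept their direction in all 159 comparisons with a matching cluster, and in 44 of them a call was lost. The 3 other settings (a lower fold, a higher fold and 20 counts) leave every ratio as it is. At 20 UMIs 5 of 12 HOX genes were called, HOXB9 among them, and the share of all genes called at that minimum was not counted. A cluster counted as matching when the Jaccard overlap of its cells was at least 0.1, a limit set after the values were seen. It left out 9 pairs of cluster and setting, in which 10 of 33 ratios lay on the opposite side of 1. In cells with at least 2000 counts, clusters 5 and 7 had the same match. Clusters 1 and 4 also had the same match there, with overlaps of 0.1035 and 0.2393. Cluster 7 had no match at resolution 0.3, in expression or with at most 10% mitochondrial UMIs. HOX transcripts averaged 0.285 UMIs per cell, so no single cell can be called on or off, and clusters of 288 to 627 cells leave intervals on most HOX genes wider than 1.5-fold.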

Other observations

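Calls of Polycomb and Trithorax genes are set beside the share of all genes called in the same chromatin cluster. In cluster 5, where HOXA UMIs were higher, 6 of 24 Polycomb genes compared passed 1.5-fold (EZH2, JARID2, PHF1, PHF19, PCGF6 and CBX6), 1 of them higher and 5 lower, and 15.0% of all genes passed in either direction. In cluster 4, where HOXA UMIs were lower, EZH1 alone of 24 was called, lower, against 10.6% of all genes in either direction. In cluster 3, 3 of the 24 were called, against 12.4% of all genes, in cluster 2 there were 2 and in cluster 6 there was 1, against 10.4% of all genes in each. In cluster 7 none of the 24 was called, and of 14 Trithorax genes 1 was higher and 1 lower, against 10.4% of all genes in either direction. None of the 14 Trithorax genes was called in clusters 1 to 6, nor a Polycomb gene in cluster 1. These counts cover Polycomb and Trithorax genes with at least 100 UMIs.

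Cofactors of HOX proteins were also called, and 7 of the 9 had enough UMIs to be compared. PBX3 stood at 201 CPM in cluster 2 and 115 CPM in other cells (1.75, 1.59 to 1.93) and at 76.1 CPM in cluster 5 and 133 CPM in other cells (0.573, 0.459 to 0.708). MEIS2 stood at 686 CPM in cluster 5 and 454 CPM in other cells (1.51, 1.40 to 1.63). Of all genes compared, 6.05% were called higher in cluster 2. In cluster 5, 4.37% of all genes were called higher and 10.6% lower. MEIS3 was called lower in cluster 3 (0.570, 0.339 to 0.904), as were 7.22% of all genes. PBX2 was called lower in cluster 6, as were 4.64% of all genes. HOXA-AS2 was called higher in cluster 3 (1.59, 1.15 to 2.14), as were 5.23% of all genes. HOXA4 was called higher in cluster 3 and in cluster 5, where HOXA-AS2 had 0.899 (0.574 to 1.35).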
